A study of Homo sapiens with 8 samples.

Results

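The comparison set the ΔNP63α line against the empty-vector line of SUM159 trailblazer cells while neither had received doxycycline. It used the 2 arrays whose titles name the P63-V5 line without doxycycline and the 2 whose titles name the WT line without doxycycline, 4 of the 8 arrays in the series, and covered every gene above background, 12385 in all. SUM159 is a human breast cancer line, and trailblazer cells are a highly invasive subpopulation of it. Cells of the ΔNP63α line carried ΔNP63α-V5 in pLIX, a lentiviral vector whose insert is switched on by doxycycline. Cells of the other line carried the same vector empty. The other 4 arrays, 2 per line, came from cells given 1 ug/ml doxycycline, and all groups were sampled at 5 days. The labels call the lines stable, and say neither whether they were clones nor whether the 2 arrays of a group are separate cultures. The p-values thus rest on the spread between arrays, which may be technical.

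p63 is a transcription factor of the p53 family, and ΔNp63α is its main isoform in basal epithelium, where it sustains keratins, hemidesmosomes and the proliferative layer and opposes mesenchymal features. An inducible vector is meant to be silent until doxycycline is added. A comparison of uninduced lines shows what differs between the cells without doxycycline and gives the baseline against which the induced gene is read. TP63 had 0 named probes on the array, and the level of the vector's own gene was not analysed here. Leaky expression of the insert without doxycycline could thus not be checked, and cannot be told apart from other differences between the lines. The series title places p63 in epithelial-to-mesenchymal state heterogeneity and collective invasion.

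The arrays gave single-colour Illumina intensities, and values below are log2 intensities after background correction, with differences as ΔNP63α line minus empty-vector line. Over the 12385 genes, Spearman's correlation was 0.972 between the 2 uninduced ΔNP63α arrays and 0.975 between the 2 uninduced empty-vector arrays, and it lay between 0.968 and 0.971 across the lines. The median gene differed by 0.118 between the 2 ΔNP63α arrays and by 0.108 between the 2 empty-vector arrays. Genes above background on both arrays of both lines numbered 10583, with 577 above it in the ΔNP63α line alone and 581 in the empty-vector line alone. The mesenchymal markers VIM, CD44, AXL, CAV1, SNAI2, MSN and FN1 were above background on 8 of 8 arrays and ZEB1 on 6. Of markers expected to be absent or low, CDH1, KRT19, PTPRC and PECAM1 were above it on 0 arrays and EPCAM on 3. ESR1 was above it on 1 array, HBB on 2 and CD14 on 8, the last at dim intensities of 120.1 to 142.9. In bulk RNA, fewer cells of a type and less RNA per cell cannot be told apart.

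Few genes passed the test between the uninduced lines, and those that did were lower in the ΔNP63α cells. With limma, at an adjusted p below 0.05, 6 genes passed the test (0.0484% of the 12385), and 6 of the 6 were lower in the ΔNP63α line: the metallothionein gene MT1E, FEZ1, PKNOX2, PRKCH, SERPINB5 and AJUBA. No gene passed as higher (0), although 619 genes were higher and 621 lower at an unadjusted p under 0.05 (5% and 5.01%). Beyond 2-fold lay 6 genes, 0 higher and 6 lower, and beyond 1.5-fold lay 67, of which 10 were higher and 57 lower. The arrays of the 2 lines did not overlap for 67 of those 67, beside 20.1% of all genes on the low side and 22.3% on the high side. The 67 were picked by their difference on the same arrays, so the lack of overlap is no added support. The median difference of all genes was 0.01. The count of 6 rested on few arrays, since it was 0 without empty-vector array 1 of the uninduced cells and 1 without empty-vector array 2. Without array 2 of the uninduced ΔNP63α line 6 genes were called, of which 1 was among the 6 above.

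MT1E encodes a metallothionein, a small cysteine-rich protein that binds zinc and copper. It read 8.39 and 7.85 in the uninduced ΔNP63α line, against 10.15 and 9.92 in the uninduced empty-vector line. Both ΔNP63α arrays lay below both empty-vector arrays by more than the gap within either line. The difference was -1.92 ± 0.17 (SE, n = 2 arrays per line), 3.77-fold lower, with a limma adjusted p of 0.00183. With doxycycline MT1E read 8.01 and 8.11 in the ΔNP63α line, against 9.49 and 9.80 in the empty-vector line, a difference of -1.59 (adjusted p = 2.8e-04). Metallothionein genes are close paralogs that a probe may not separate, and a further MT1E probe was below background.

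FEZ1 encodes a kinesin adaptor of axonal transport. Its brightest probe read 9.18 and 8.10 in the uninduced ΔNP63α line, against 10.86 and 10.50 in the uninduced empty-vector line. The ΔNP63α arrays differed from each other by over 1 log2 unit and were still both below the empty-vector arrays. The difference was -2.04 ± 0.29 (SE), 4.11-fold lower (limma adjusted p = 0.0411). A second FEZ1 probe read 6.927 and 6.399 in the ΔNP63α line, against 8.161 and 7.599 in the empty-vector line, a difference of -1.22. The other 2 kept probes of FEZ1 showed no such gap, at -0.09 and 0.05. With doxycycline the brightest FEZ1 probe read 10.63 and 10.01 in the ΔNP63α line, against 10.88 and 10.53 in the empty-vector line, so that the lines overlapped (difference -0.38, adjusted p = 0.482). The other kept FEZ1 probes then differed by 0.07, 0.75 and 0.88.

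PKNOX2 encodes a TALE homeobox transcription factor. It read 6.87 and 6.32 in the uninduced ΔNP63α line, against 8.28 and 8.06 in the uninduced empty-vector line. The 2 lines did not overlap. The difference was -1.57 ± 0.19 (SE), 2.97-fold lower (limma adjusted p = 0.0185), and with doxycycline PKNOX2 differed by -1.66 (adjusted p = 3.5e-04). PRKCH encodes protein kinase C eta, a kinase of differentiating epithelium. PRKCH read 8.13 and 8.06 in the uninduced ΔNP63α line, against 8.97 and 8.86 in the uninduced empty-vector line. The 2 arrays of each line lay close together for PRKCH, and the difference was -0.82 ± 0.10 (SE; limma adjusted p = 0.0189). On the arrays with doxycycline PRKCH differed by -0.67 (adjusted p = 0.00236).

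SERPINB5 encodes maspin, a serpin of mammary and other basal epithelium. It read 6.99 and 6.96 in the uninduced ΔNP63α line, against 7.69 and 7.69 in the uninduced empty-vector line. The pairs were tight and did not overlap, and the difference was -0.71 ± 0.10 (SE; limma adjusted p = 0.0336). With doxycycline the order of the lines turned round: SERPINB5 read 8.18 and 8.31 in the ΔNP63α line, against 7.71 and 7.72 in the empty-vector line, 0.53 higher (adjusted p = 0.00793). The change of the line difference with doxycycline was itself tested for SERPINB5 and was 1.24 (interaction adjusted p = 0.00124). AJUBA encodes a LIM-domain scaffold of cell junctions that binds LATS kinases of the Hippo pathway. AJUBA read 8.06 and 8.12 in the uninduced ΔNP63α line, against 8.78 and 8.80 in the uninduced empty-vector line, a difference of -0.70 ± 0.10 (SE; limma adjusted p = 0.0336). Its 2 dimmer probes differed by -0.0018 and -0.19, and the mean of the 3 AJUBA probes did not pass (-0.30, adjusted p = 0.406).

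**Figure D1:**
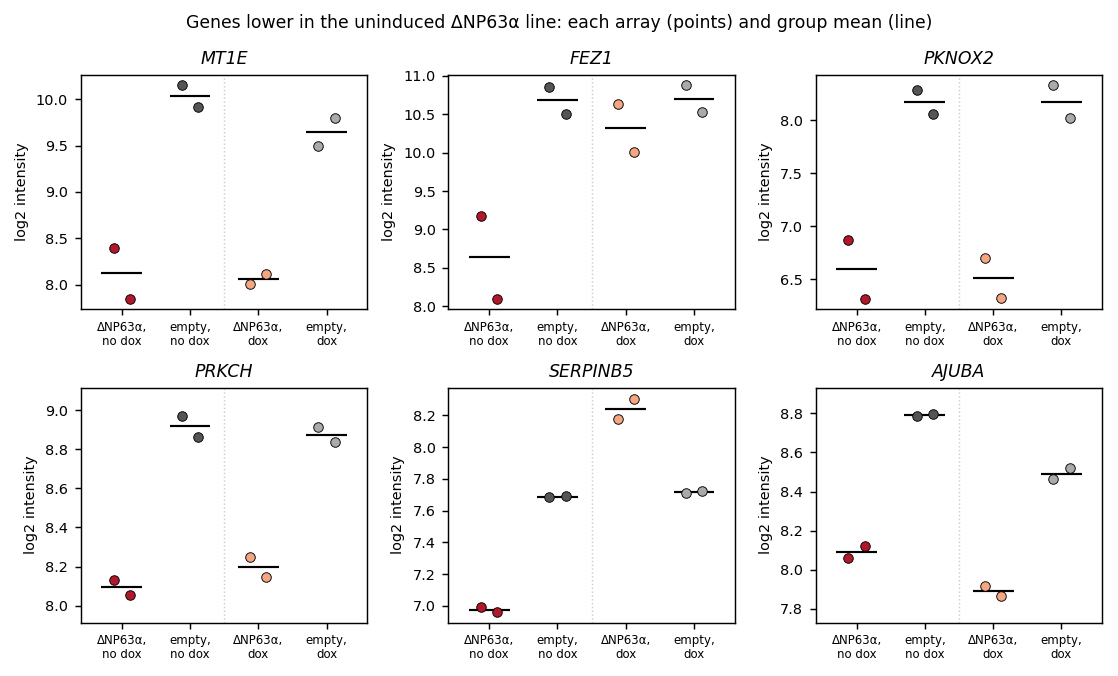
Log2 intensity (y axis, own scale per panel) of the 6 genes past the limma threshold on each array (points), with group means (lines), for the ΔNP63α and empty-vector lines without and with doxycycline (x axis). Uninduced ΔNP63α arrays lie below uninduced empty-vector arrays in 6 of 6 panels, and for SERPINB5 the order is the other way round with doxycycline.

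Just beyond the threshold, at an adjusted p between 0.05 and 0.1, lay 21 genes, of which 19 were lower and 2 higher in the uninduced ΔNP63α line. These genes were picked after their values were seen, and none passed the test. The largest difference of any gene was that of CXCL8, which encodes interleukin-8, a neutrophil-attracting chemokine. CXCL8 read 7.56 and 8.79 in the uninduced ΔNP63α line, against 10.53 and 10.34 in the uninduced empty-vector line. The ΔNP63α arrays were far apart from each other and both below the empty-vector arrays. The difference of CXCL8 was -2.26 ± 0.35 (SE; adjusted p = 0.0528), and its second probe differed by -1.76. With doxycycline CXCL8 overlapped between the lines, at -0.46 (adjusted p = 0.471) and -0.25 on the second probe. CCN2, which encodes the matricellular connective tissue growth factor, read 9.19 and 9.53 in the ΔNP63α line, against 10.68 and 10.64 in the empty-vector line, a difference of -1.30 (adjusted p = 0.0528). A second CCN2 probe differed by -1.03. EDN1, the vasoconstrictor peptide endothelin-1, read 8.05 and 7.46 in the ΔNP63α line, against 8.95 and 8.89 in the empty-vector line, a difference of -1.16 (adjusted p = 0.0562). None of these pairs overlapped.

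The same band held genes of several other kinds. RASIP1, a Ras-interacting protein of endothelial junctions, differed by -0.99, and the translation initiation factor EIF5 by -0.89, although the dimmer EIF5 probes showed differences of -0.15 to 0.06. E2F7, a repressor of E2F target genes, differed by -0.78 and the cationic amino acid transporter SLC7A2 by -0.71. SNHG1, a small nucleolar RNA host gene, read 11.64 and 11.58 in the ΔNP63α line, against 12.30 and 12.28 in the empty-vector line, a difference of -0.68. The 2 genes on the higher side were GAGE7 and ABCA1. ABCA1, the cholesterol efflux pump, read 8.022 and 7.995 in the ΔNP63α line, against 7.387 and 7.437 in the empty-vector line, a difference of 0.60 (adjusted p = 0.0809). With doxycycline ABCA1 was 1.58 higher in the ΔNP63α line.

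**Figure D2:**
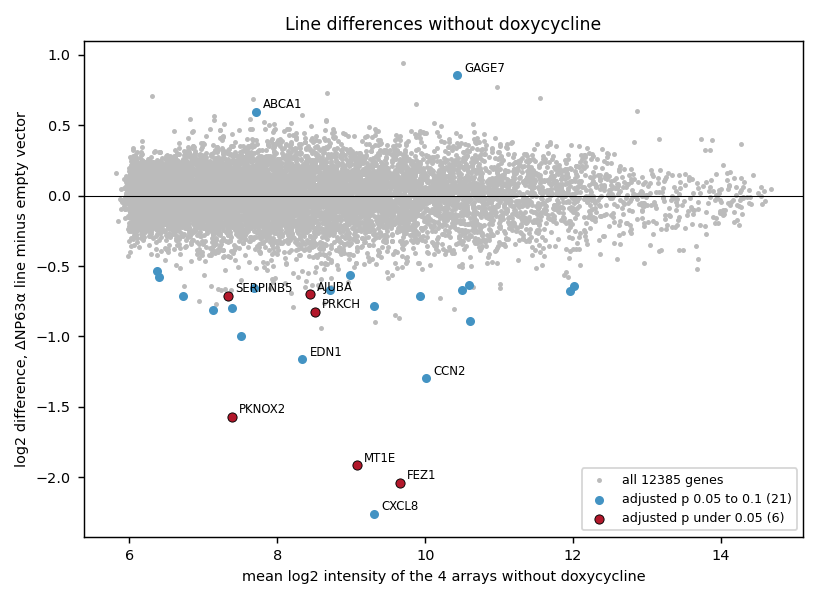
Log2 difference between the uninduced lines (y axis, ΔNP63α minus empty vector) against mean log2 intensity of the 4 arrays (x axis) for the 12385 genes, with the 6 called genes in red and the 21 at an adjusted p of 0.05 to 0.1 in blue. The coloured points lie below 0 except GAGE7 and ABCA1.

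On the higher side the 10 genes beyond 1.5-fold were ABCA1, the cancer-testis genes GAGE7, GAGE10, GAGE12E, GAGE12F and PAGE1, the histone gene H2BC12, the actin regulator CYFIP2, the forkhead gene FOXO6 and the small nucleolar RNA gene SNORD13. H2BC12 read 10.36 and 10.05 in the uninduced ΔNP63α line, against 9.50 and 9.60 in the uninduced empty-vector line, a difference of 0.65 (limma adjusted p = 0.149), and 0.89 with doxycycline (adjusted p = 0.00276). CYFIP2 read 7.84 and 8.19 in the ΔNP63α line, against 7.27 and 7.38 in the empty-vector line, a difference of 0.69 (adjusted p = 0.131), and 0.83 with doxycycline. The pairs of H2BC12 and of CYFIP2 did not overlap, but a dimmer probe of H2BC12 differed by 0.0093 and those of CYFIP2 by -0.07 and 0.29. SNORD13 and FOXO6 spread widely between the 2 ΔNP63α arrays: SNORD13 read 9.71 and 10.63 there, against 9.39 and 9.06 in the empty-vector line (difference 0.94, adjusted p = 0.393). Among genes beyond 1.5-fold on the lower side with no call, PHLDA1, an early-response gene downstream of growth factors, differed by -0.81, ACAT2, the acetyl-CoA acetyltransferase of sterol synthesis, by -0.90, BEX1 by -0.79 and ID3, an inhibitor of bHLH factors, by -0.61. A dimmer probe of BEX1 differed by 0.03, of ACAT2 by -0.20 and of PHLDA1 by -0.16.

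NF-κB is held in the cytoplasm by inhibitor proteins such as NFKBIA and, once freed by cytokines such as interleukin-1, drives inflammatory genes including its own inhibitors. YAP is a coactivator that binds TEAD factors at genes such as CCN2 and ANKRD1 when the Hippo kinases are off. Genes of both kinds stood at the low end, so the upstream sequences of 3 of them are shown, chosen after their values were seen. They are the 250 bases before the start of CXCL8 (chr4:73740319-73740568, plus strand), NFKBIA (chr14:35404750-35404999, minus strand) and CCN2 (chr6:131951373-131951622, minus strand), from RefSeq, build GRCh38.p14, written 5′ to 3′. Capitals mark matches to the NF-κB core GGNNNTTCC in CXCL8 and NFKBIA and to the TEAD core GGAATG in CCN2, both searched on both strands.
CXCL8: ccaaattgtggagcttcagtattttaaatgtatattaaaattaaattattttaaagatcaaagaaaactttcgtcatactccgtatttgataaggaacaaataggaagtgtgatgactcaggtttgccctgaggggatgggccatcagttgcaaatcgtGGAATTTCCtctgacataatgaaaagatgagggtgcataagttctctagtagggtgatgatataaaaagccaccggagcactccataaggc
NFKBIA: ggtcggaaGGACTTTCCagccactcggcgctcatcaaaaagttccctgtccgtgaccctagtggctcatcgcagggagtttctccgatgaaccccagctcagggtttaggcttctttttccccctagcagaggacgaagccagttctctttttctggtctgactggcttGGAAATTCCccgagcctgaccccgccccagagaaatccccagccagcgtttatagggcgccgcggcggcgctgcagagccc
CCN2: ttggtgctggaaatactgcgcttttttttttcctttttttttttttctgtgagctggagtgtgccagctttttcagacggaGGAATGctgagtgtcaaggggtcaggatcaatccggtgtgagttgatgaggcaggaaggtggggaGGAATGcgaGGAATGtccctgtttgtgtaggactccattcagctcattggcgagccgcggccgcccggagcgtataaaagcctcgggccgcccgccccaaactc

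The match in CXCL8 began 91 bases before the start. Those in NFKBIA began 242 and 81 bases before it. In CCN2 there were 3 matches, beginning 169, 104 and 95 bases before the start. Over RefSeq's promoters, the NF-κB core was present in the same window of 4678 of 27305 (17.1%), and it was present in 9 of the 18 measured IL-1 and NF-κB genes with a promoter entry and in 6 of 8 chemokine genes. The TEAD core was present in 11.9% of promoters and in 6 of 17 YAP and TEAD targets. A match describes the letters and does not show that a factor binds there.

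Of 20 measured IL-1 and NF-κB genes, 0 passed the test, but 11 had both uninduced ΔNP63α arrays below both empty-vector arrays and 1 had them above. Over all genes those shares were 20.1% lower and 22.3% higher. The median member differed by -0.25, against 0.01 over all genes. At an unadjusted p under 0.05, 9 members were lower and 1 higher, beside 5.01% and 5% of all genes. IL6, the fever cytokine interleukin-6, read 6.59 and 6.86 in the ΔNP63α line, against 7.51 and 7.56 in the empty-vector line, a difference of -0.81 (adjusted p = 0.0809). RELB, an NF-κB subunit, read 6.80 and 7.18 in the ΔNP63α line, against 7.73 and 7.85 in the empty-vector line, a difference of -0.80 (adjusted p = 0.0809). The pairs of IL6 and of RELB did not overlap between the lines. IL1A, interleukin-1α, read 6.45 and 6.69 in the ΔNP63α line, against 7.44 and 7.19 in the empty-vector line, a difference of -0.75 (adjusted p = 0.107). The inhibitor gene NFKBIA read 10.70 and 10.68 in the ΔNP63α line, against 11.44 and 11.24 in the empty-vector line, a difference of -0.66 (adjusted p = 0.171). The atypical inhibitor NFKBIZ differed by -0.49, the interleukin-1 receptor kinase IRAK2 by -0.42, TNFRSF9 by -0.40, the ubiquitin-editing enzyme TNFAIP3 by -0.36 and the mitochondrial superoxide dismutase SOD2 by -0.24. PTGS2, the inducible cyclooxygenase, was the 1 member on the higher side, at 0.26.

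Of 11 measured chemokine genes 0 were called, and the median was -0.03. Those at an unadjusted p under 0.05 were 3 lower and 1 higher, beside 5.01% and 5% of all genes. Beside CXCL8 the low ones were CXCL2 and CCL20, which attract neutrophils and CCR6-bearing lymphocytes. CXCL2 read 6.38 and 6.37 in the ΔNP63α line, against 7.05 and 7.12 in the empty-vector line, a difference of -0.71 (adjusted p = 0.0918). CCL20 differed by -0.36, with array 2 of the ΔNP63α line close to the empty-vector arrays. CXCL16 lay on the other side at 0.28. On the arrays with doxycycline CXCL2 overlapped between the lines, at a difference of 0.01.

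Among 27 measured YAP and TEAD targets AJUBA was the 1 that passed, beside 0.0484% of all genes. Non-overlapping arrays were lower in 14 and higher in 1, beside 20.1% and 22.3% of all genes. The median was -0.17. Of the targets 9 were lower and 0 higher at an unadjusted p under 0.05, beside 5.01% and 5% of all genes. DLC1 read 7.68 and 7.66 in the ΔNP63α line, against 8.12 and 8.39 in the empty-vector line, a difference of -0.58 (adjusted p = 0.134). ANKRD1, an ankyrin-repeat protein induced by YAP, read 6.33 and 6.17 in the ΔNP63α line, against 6.72 and 6.70 in the empty-vector line, a difference of -0.46. The remaining members at an unadjusted p under 0.05 were ASAP1 at -0.42, the actin crosslinker LIMA1 at -0.41, tissue factor F3 at -0.40, FJX1 at -0.38 and DOCK5 at -0.25. On the separate arrays with doxycycline 12 of the 27 targets were called lower and 1 higher, beside 5.09% and 4.64% of all genes.

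**Figure D3:**
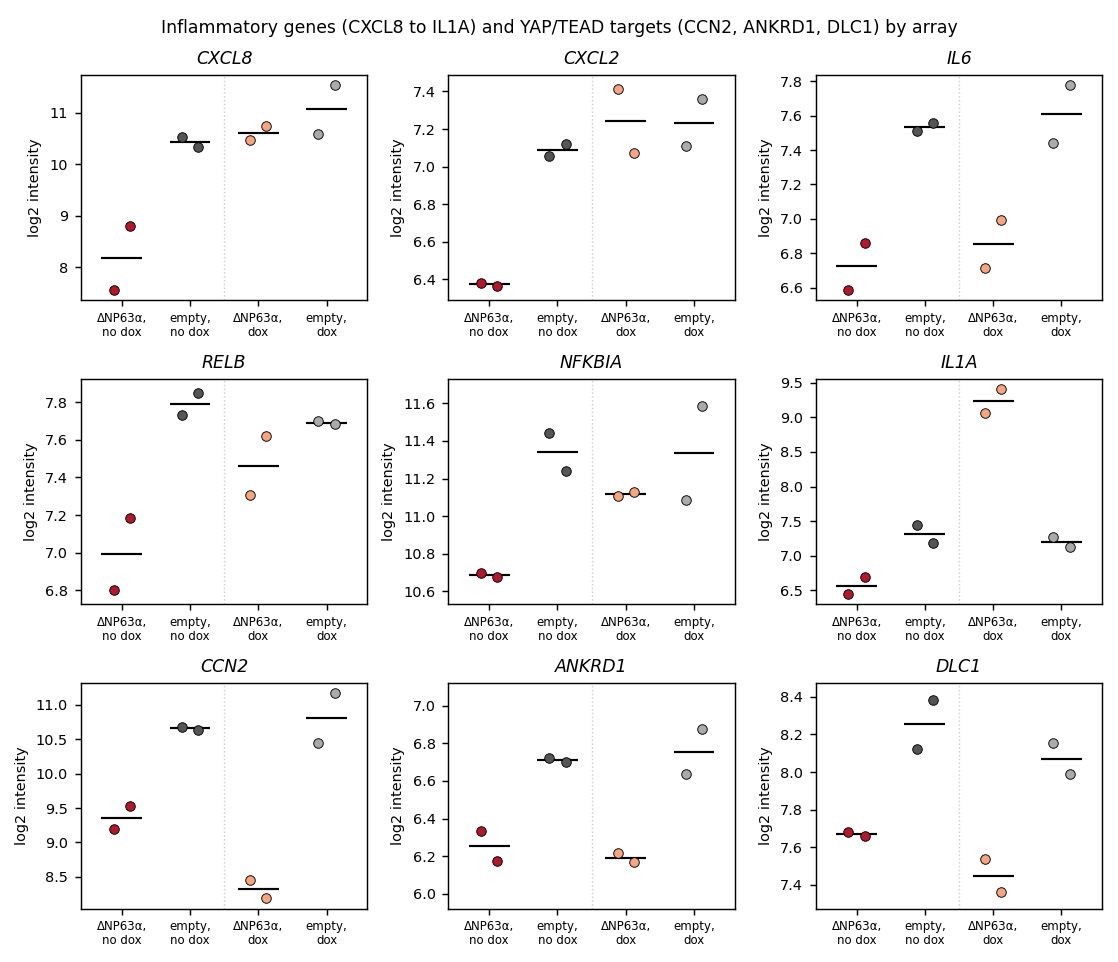
Log2 intensity (y axis, own scale per panel) on each array (points) with group means (lines) for the inflammatory genes CXCL8, CXCL2, IL6, RELB, NFKBIA and IL1A and the YAP and TEAD targets CCN2, ANKRD1 and DLC1. Both uninduced ΔNP63α arrays lie below both uninduced empty-vector arrays in every panel, while with doxycycline IL1A lies far above the empty-vector arrays in the ΔNP63α line and CXCL8, CXCL2 and NFKBIA overlap between the lines.

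Immediate early genes are switched on by growth factors and stress within minutes. Of 17 measured members 7 were lower and 0 higher at an unadjusted p under 0.05, beside 5.01% and 5% of all genes. With 0 called, beside 0.0484% of all genes, their median was -0.13. The zinc-finger factor EGR1 read 7.78 and 8.45 in the ΔNP63α line, against 9.25 and 8.87 in the empty-vector line, a difference of -0.94 (adjusted p = 0.149). IER3, an early-response survival gene, read 11.60 and 11.77 in the ΔNP63α line, against 12.43 and 12.22 in the empty-vector line, a difference of -0.64 (adjusted p = 0.0809). KLF6, FOSL1, ATF3, KLF2 and MYC differed by -0.52, -0.41, -0.41, -0.40 and -0.28. The metallothionein list, which holds the zinc exporter SLC30A1 too, had 1 call among 6 measured members (MT1E), beside 0.0484% of all genes. The abundant MT2A read 13.12 and 13.46 in the ΔNP63α line, against 13.63 and 13.73 in the empty-vector line, a difference of -0.39 (adjusted p = 0.403), and MT1X differed by -0.04. NRF2, the factor of the oxidative stress response, had 0 of 18 measured targets called. At an unadjusted p under 0.05, 6 were lower and 0 higher, beside 5.01% and 5% of all genes. Among the 6 were the transketolase TKT at -0.57, the quinone reductase NQO1 at -0.40 and thioredoxin reductase TXNRD1 at -0.33.

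The list of reported p63 targets had 0 calls among 29 measured members, beside 0 of all genes called higher and 0.0484% called lower. SERPINB5, called lower above, was not on this list. Of the 29, 7 were lower and 1 higher at an unadjusted p under 0.05, beside 5.01% and 5% of all genes, and the median was -0.07. SNAI2, the EMT factor Slug, read 8.06 and 8.54 in the ΔNP63α line, against 8.86 and 8.92 in the empty-vector line, a difference of -0.59 (adjusted p = 0.255). S100A2, a calcium-binding protein of basal keratinocytes, read 6.98 and 6.59 in the ΔNP63α line, against 7.07 and 7.42 in the empty-vector line, a difference of -0.46 (adjusted p = 0.438). The EGFR ligand HBEGF differed by -0.44, the hyaluronan receptor CD44 by -0.39, HES1, a Notch effector, by -0.37 and LAMB3, the laminin-332 chain, by -0.27. A dimmer kept LAMB3 probe differed the other way, by 0.20. FGFR3 was on the other side at 0.26. The 12 hemidesmosome and laminin genes had a median of -0.09 with 0 called, and the collagen receptor subunit ITGA2 read 8.47 and 8.82 in the ΔNP63α line, against 8.97 and 8.95 in the empty-vector line. On the arrays with doxycycline the median of that list was 0.38, with 4 called higher and 0 lower, beside 4.64% and 5.09% of all genes. Of 13 basal and squamous keratinocyte genes 0 were called, and KRT75, a keratin of hair follicles, differed by -0.33.

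Of 25 measured mesenchymal genes 0 passed, near the 0.0484% of all genes, and the median was -0.01. Those at an unadjusted p under 0.05 were 2 lower and 1 higher, beside 5.01% and 5% of all genes. The intermediate filament VIM differed by -0.27, the smooth muscle protein TAGLN by -0.35 and the PDGF receptor PDGFRB by 0.25. With doxycycline 13 of the 25 were called lower and 1 higher, with a median of -0.54, beside 5.09% and 4.64% of all genes. Of 11 measured epithelial genes 0 were called. CLDN1, a tight-junction claudin, read 9.32 and 9.10 in the ΔNP63α line, against 10.43 and 9.72 in the empty-vector line, a difference of -0.87 (adjusted p = 0.328), with the empty-vector arrays far apart from each other. The 14 EMT transcription factors had 0 calls. Of them 3 were lower and 0 higher at an unadjusted p under 0.05, beside 5.01% and 5% of all genes. Beside SNAI2, the lower ones were FOXQ1 at -0.44 and PRRX1 at -0.28.

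Trailblazer-associated genes, named for invasive cells of this line, had 0 of 10 measured members called. DOCK10, a guanine nucleotide exchange factor, read 7.77 and 7.50 in the ΔNP63α line, against 8.22 and 8.29 in the empty-vector line, a difference of -0.62 (adjusted p = 0.131). VASN, a TGF-β-binding surface protein, read 10.48 and 10.28 in the ΔNP63α line, against 9.90 and 9.83 in the empty-vector line, a difference of 0.52, and the lipid phosphatase PLPP3 differed by 0.44. Of 23 measured matrix proteases and inhibitors SERPINB5 was the 1 called, beside 0.0484% of all genes. Beyond it ADAMTS6 differed by -0.66, urokinase PLAU by -0.42 and the sheddase ADAM17 by -0.34, while the lysosomal protease CTSL differed by 0.40.

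Cancer-testis genes, X-linked for the most part and normally expressed in germ cells, differed in both directions. Of 26 measured members 0 were called, and the median was 0.16. At an unadjusted p under 0.05, 7 were higher and 3 lower, beside 5% and 5.01% of all genes. Non-overlapping arrays were higher in 12 and lower in 3, beside 22.3% and 20.1% of all genes. PAGE1 read 11.23 and 11.49 in the ΔNP63α line, against 10.49 and 10.68 in the empty-vector line, a difference of 0.77 (adjusted p = 0.149), and its arrays with doxycycline gave 1.01 (adjusted p = 0.00371). The GAGE, PAGE, XAGE, SPANX, MAGEA, CT45A and SSX families were then read in full, having been picked after their values were seen. Of 5 measured PAGE genes 3 had higher and 0 lower non-overlapping arrays. Beside PAGE1, PAGE2 and PAGE2B were each higher by 0.30, while PAGE3 differed by -0.02. PAGE5 differed by -0.50 with overlapping arrays, and by -0.88 with doxycycline. The 1 measured XAGE gene differed by 0.28 and the 1 measured CT45A gene by -0.03. All 12 measured GAGE genes had both ΔNP63α arrays above both empty-vector arrays, by 0.22 to 0.86 with a median of 0.40, and 0 were called. GAGE7 read 10.82 and 10.90 in the ΔNP63α line, against 9.87 and 10.14 in the empty-vector line, a difference of 0.86 (adjusted p = 0.0809). Of 6 measured SPANX genes 5 had lower and 1 had higher non-overlapping arrays. SPANXD read 7.424 and 7.300 in the ΔNP63α line, against 8.031 and 8.004 in the empty-vector line, a difference of -0.66 (adjusted p = 0.0528), and SPANXN3 was the member on the higher side, at 0.28. The 9 MAGEA genes had 4 values above and 5 below 0 with a median of -0.02, and the 4 SSX genes a median of 0.01. With doxycycline 5 GAGE genes were called higher and 5 SPANX genes lower, beside 4.64% of all genes called higher and 5.09% lower. Members of a family can be near-identical and their probes may not separate them, so the counts are not of independent genes.

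**Figure D4:**
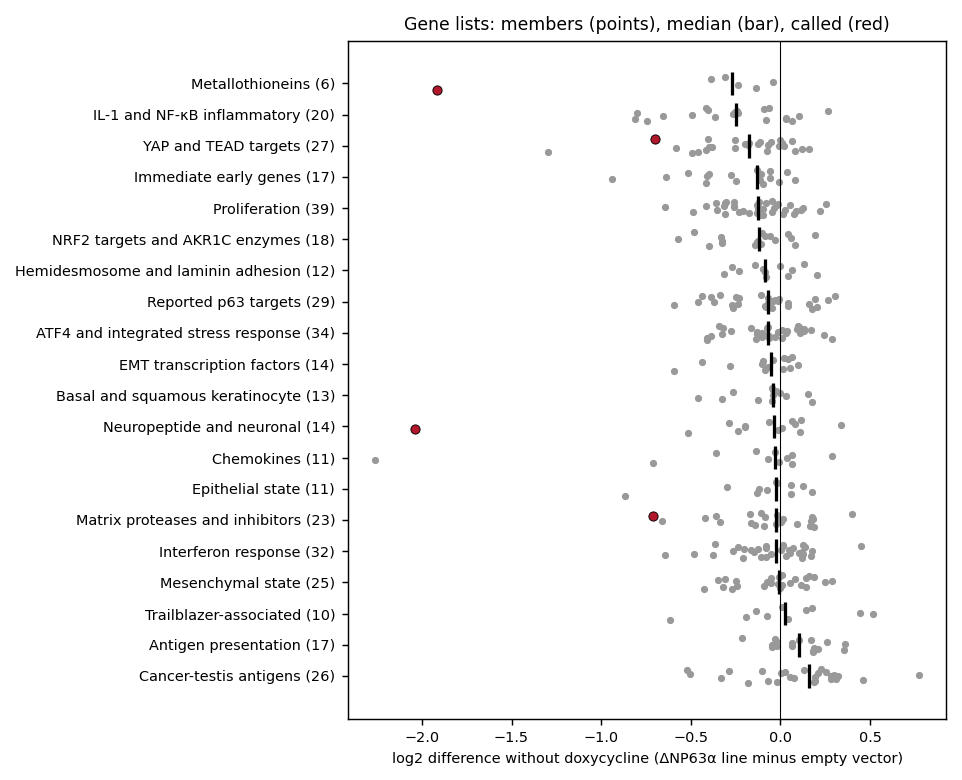
Log2 difference between the uninduced lines (x axis, ΔNP63α minus empty vector) of each measured member (points) of 20 gene lists, with the median of each list (bars) and called genes in red. Medians run from -0.27 in the metallothionein list to 0.16 in the cancer-testis list, and 4 points are red.

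Of the 44 lists 33 had a median below 0 and 11 above it. Antigen presentation had a median of 0.11 over 17 measured genes, with 0 called. Its arrays were higher without overlap in 8 genes and lower in 1, beside 22.3% and 20.1% of all genes. HLA-E, a class I molecule, differed by 0.36 and the immunoproteasome subunits PSMB8 and PSMB10 by 0.36 and 0.26. Interferon response genes had 0 of 32 called and a median of -0.02, with IFIT2 at -0.64 and the ubiquitin enzyme UBE2L6 at 0.45. The 34 ATF4 and integrated stress response genes had 0 calls and a median of -0.07. Of them 7 were lower and 1 higher at an unadjusted p under 0.05, beside 5.01% and 5% of all genes. Among the lower ones were the stress factor DDIT3 at -0.41 and asparagine synthetase ASNS at -0.39. Of 39 proliferation genes 0 were called, and the median was -0.12. Those at an unadjusted p under 0.05 were 4 lower and 1 higher, beside 5.01% and 5% of all genes. TYMS, thymidylate synthase, read 7.94 and 8.16 in the ΔNP63α line, against 8.64 and 8.75 in the empty-vector line, a difference of -0.65 (adjusted p = 0.469). Of the neuropeptide and neuronal list FEZ1 was called among 14 measured genes, beside 0.0484% of all genes. GAL, the neuropeptide galanin, differed by -0.51. The other 24 lists, from collagens to the cytosolic ribosome and the luminal, blood and endothelial markers, held 0 calls, with medians between -0.13 and 0.06. Summed intensities of luminal markers with a probe were 7650 and 8333 in the ΔNP63α line, against 9688 and 9526 in the empty-vector line. Of those 15 markers 9 were above background on any array, KRT19 on none, and XBP1 differed by -0.34 and KRT8 by -0.30. XBP1 read 12.39 and 12.54 in the ΔNP63α line, against 12.83 and 12.78 in the empty-vector line. This 1 bright gene makes up most of the sum. The part of luminal markers in the line differences was not tested. Blood markers summed to 2181 and 2308 in the ΔNP63α line, against 2159 and 2247 in the empty-vector line, and endothelial markers to 1275 and 1277 in the ΔNP63α line, against 1310 and 1284 in the empty-vector line.

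Doxycycline alone called 0 genes in the empty-vector line by limma, with 543 (4.38%) at an unadjusted p under 0.05, and the uninduced ΔNP63α arrays were set against all 4 empty-vector arrays as well, 2 of them from treated cells. That called 103 genes (0.832%), 70 lower (0.565%) and 33 higher (0.266%), and it reuses the 4 uninduced arrays, so it is not a second measurement. For 103 of the 103 both uninduced ΔNP63α arrays lay outside all 4 empty-vector arrays. That held for 11.8% of all genes on the low side and 14.3% on the high side. The 103 were picked by their difference on the same arrays, so this is no added support. The inflammatory genes IL6, RELB, IL1A, NFKBIA and NFKBIZ were lower in this comparison, at differences of -0.85, -0.75, -0.69, -0.65 and -0.52 and adjusted p from 0.0171 to 0.0461. CXCL8 was lower at -2.58 (adjusted p = 0.00667) and CXCL2 at -0.79 (adjusted p = 0.0154). The YAP and TEAD targets CCN2, AJUBA, ANKRD1 and LIMA1 were lower at -1.37, -0.55, -0.48 and -0.47. Also lower were EGR1 at -1.19, IER3 at -0.74, HBEGF at -0.50, SNAI2 at -0.67, DOCK10 at -0.78 and TKT at -0.71. PAGE1 was higher by 0.94 (adjusted p = 0.0173).

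The arrays with doxycycline share no array with the uninduced comparison and show whether the same line differences recur when the ΔNP63α line is induced. Both comparisons came from 1 fit and share each gene's SE (0.17 for MT1E in both). A gene with a small SE is thus called more readily in both, so their calls are not independent. Same-numbered ΔNP63α arrays without and with doxycycline also had deviations from their group means that correlated at 0.432. The 2 comparisons are thus not fully separate. There 1206 genes were called (9.74%), 575 higher and 631 lower, and the count was 380 without treated empty-vector array 2 and 401 without induced ΔNP63α array 2. Of the 6 genes called without doxycycline 5 had the same sign and 4 were called lower again (MT1E, PKNOX2, PRKCH and AJUBA), 1 had the opposite call (SERPINB5), and FEZ1 was not called. Of the 621 genes lower at an unadjusted p under 0.05 without doxycycline, 530 (85.3%) had the same sign with it, 227 (36.6%) were called lower and 19 higher. Of all 5967 genes with a negative difference without doxycycline, 65.9% had the same sign and 9.02% were called lower. Of the 619 genes on the higher side, 542 (87.6%) had the same sign, 163 (26.3%) were called higher and 6 lower, beside 65.6% and 6.87% of all 6418 genes with a positive difference. The median difference of the 621 lower genes was -0.35 without doxycycline and -0.32 with it, and of the 619 higher genes 0.31 and 0.23.

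The change of the line difference with doxycycline, tested as an interaction, was called for 90 genes (0.727%), of which 30 had an unadjusted p under 0.05 between the uninduced lines. The count of 90 was 38 and 33 without uninduced empty-vector array 1 or array 2, 43 without treated empty-vector array 2, 52 without induced ΔNP63α array 2 and 55 without uninduced ΔNP63α array 1. The uninduced difference enters the interaction with a minus sign, so picking genes by both favours opposite signs. Counts of reversals among the 30 are thus partly built in. In 17 of these 30 the ΔNP63α line was on the low side without doxycycline and was called higher with it. IL1A, at -0.75 without doxycycline, read 9.07 and 9.41 in the induced ΔNP63α line, against 7.27 and 7.12 in the treated empty-vector line, and the difference changed by 2.79 (interaction adjusted p = 1.3e-04). GAL read 6.511 and 6.356 in the uninduced ΔNP63α line, against 7.002 and 6.891 in the uninduced empty-vector line, and its difference changed by 2.44. ITGA2 changed by 2.06, S100A2 by 1.75, SOD2 by 1.04, HES1 by 1.01 and LIMA1 by 0.96. KRT75 and the YAP target LIMA1 were of this kind, as was SERPINB5.

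In 6 of the 30 the ΔNP63α line was on the high side without doxycycline and was called lower with it. XAGE2, a cancer-testis gene, read 9.17 and 9.09 in the uninduced ΔNP63α line, against 8.92 and 8.77 in the uninduced empty-vector line, and with doxycycline 7.90 and 8.01 in the ΔNP63α line, against 9.10 and 9.09 in the empty-vector line. PLPP3 and PDGFRB were of this kind, as were ADGRL3, STAC2 and TNFRSF21. In 4 genes the ΔNP63α line was on the low side without doxycycline and further below with it. DKK1, a secreted Wnt antagonist, read 9.24 and 9.09 in the uninduced ΔNP63α line, against 10.06 and 9.97 in the uninduced empty-vector line, a difference of -0.85 that was -2.39 with doxycycline (interaction adjusted p = 0.0311). A dimmer DKK1 probe differed by -0.11 and -0.22. In the last 3, TMEM205, ABCA1 and KLHDC8B, it was on the high side and further above with doxycycline. ABCA1 changed by 0.99 (interaction adjusted p = 0.00901).

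**Figure D5:**
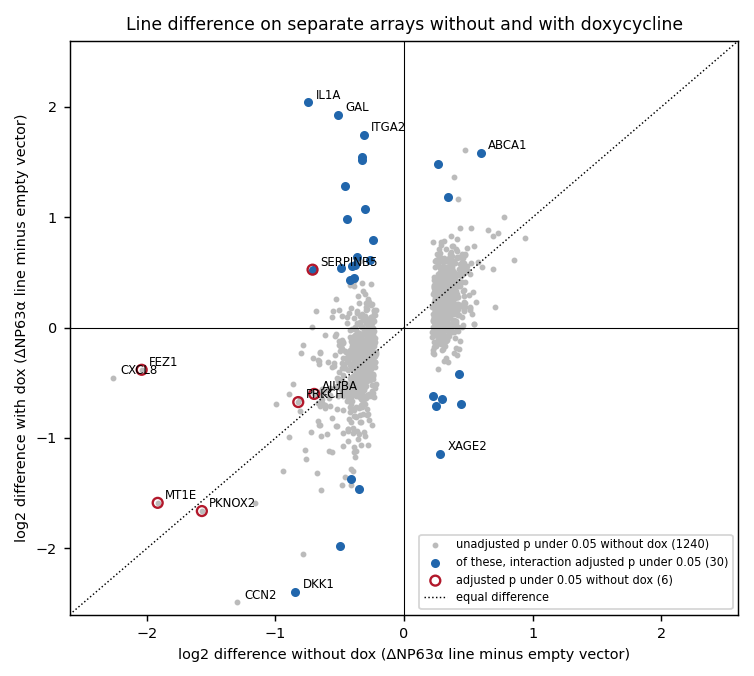
Log2 difference between the lines with doxycycline (y axis) against the same without it (x axis, both ΔNP63α minus empty vector) for the 1240 genes with an unadjusted p under 0.05 without doxycycline. Blue points are the 30 with a called interaction, rings the 6 called genes, and the dotted line marks equal differences. Most points keep their sign, and IL1A, GAL and ITGA2 are the highest of the points that were lower without doxycycline.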

How the data were processed

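The deposited values were probe intensities on a linear scale for 47304 probes on each of the 8 arrays, from biotin-labelled cRNA per the labels' protocols. The authors' normalisation method is not given in the sources used here. The arrays already shared a distribution, running from 89.2 to 27456.4 around a median of 113.5 on each. A further deposited table was not used, because its 16 columns of per-sample values match no label. Intensities were background corrected with normexp (offset 50) in limma 3.58.1 under R 4.3.3 and log2 transformed. A fold is on that scale and understates the change of dim genes. A probe was kept above 114.3 on both arrays of at least 1 of the 4 groups, where 114.3 is the mode (106.9) plus 1.645 SD, with the SD (4.52) taken from the lower side of the mode and its mirror image. This kept 23086 probes, and 48.0% to 48.1% of each array's probes lay above the level. Of all probes 30105 had 1 gene symbol in the platform annotation, 8 had several and 17191 were unlisted, and an update through 30066 matched Entrez identifiers changed 0 symbols. The brightest kept probe stood for each of the 12385 genes, 3465 of which had more than 1.

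The limma model had a mean for each group and used all 8 arrays (4 residual and 7.48 prior degrees of freedom), with eBayes, Benjamini-Hochberg adjustment over the 12385 genes, a threshold of 0.05 and two-sided tests. The median SE of a difference was 0.116, so precision is limited by how few arrays there are. The genes named by rule were those past the threshold with non-overlapping arrays, up to 15 per direction, every list member past it, and otherwise the list member with the smallest unadjusted p. Other genes named were picked after their values were seen. The members and the 44 gene lists were chosen with earlier results of these data known. The fit was tested on simulated data. Alternatives covered the replicate block, background correction, offset, loess, the filter, the probe rule, the arrays fitted, the variance model, array weights, each array left out, and all 4 empty-vector arrays as the comparison group.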

Additional observations from a re-analysis of the deposited data

Results flagged for a closer look

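The line difference changed with doxycycline by a tested interaction for 90 genes (limma adjusted p under 0.05). Among the genes named by rule these were SERPINB5, whose difference between the ΔNP63α and empty-vector lines changed by 1.24 (adjusted p = 0.00124), S100A2 by 1.75 (adjusted p = 0.0106), HES1 by 1.01 (adjusted p = 0.0106) and DKK1 by -1.55 (adjusted p = 0.0311).

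For 3 further genes all arrays of the ΔNP63α line lay on one side of the empty-vector line without doxycycline and on the other side with it, while the interaction did not pass the threshold. The change was 0.50 for LAMB3 (adjusted p = 0.239), -0.45 for ITGA1 (adjusted p = 0.310) and 0.66 for GRB10 (adjusted p = 0.175). These are values of the brightest probes. A dimmer kept LAMB3 probe differed by 0.20 without doxycycline and 0.11 with it, so it did not change sides. The dimmer kept GRB10 probes differed by -0.05, -0.02 and -0.14 without doxycycline and by -0.07, 0.09 and 0.26 with it.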

How the results depend on the processing

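The 6 calls without doxycycline became 27 with a replicate block, 3 without background correction, 18 at an offset of 16, 10 with cyclic loess, 11 without the filter, 37 with only the 4 arrays compared, 29 with a trended and robust variance, 14 with array weights and 103 against all 4 empty-vector arrays. Leaving out 1 array gave 0 to 6. The same settings called higher genes too: 4 with the block, 5 with the 4 arrays, 2 with the robust variance and 33 against all empty-vector arrays. With doxycycline, 1206 calls became 717 with only the 4 arrays compared, and 380 to 1158 with 1 array left out (380 without empty-vector array 2 and 401 without ΔNP63α array 2). The 90 interactions became 155 with the block, 59 without background correction, and 33 to 96 with 1 array left out. The 4 called list members became 11 with the block, 2 without background correction, 9 at the offset of 16, 2 with the mean of a gene's probes, 16 with the 4 arrays compared, 10 with the robust variance, 27 against all empty-vector arrays, and 0 to 4 with 1 array left out. The causes of these shifts were not tested.

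Same-numbered uninduced arrays of the 2 lines had deviations from their group means that correlated at 0.0456. Over all pairs of groups this correlation ran from 0.0403 to 0.432, and since not every pair was over 0.1 the replicate number was not taken to pair the arrays. The value of 0.432 was that of the ΔNP63α line without and with doxycycline, beside 0.211 for the empty-vector line. Across 19 alternatives the direction held in 19 for each of the 6 genes, and the call in 18 for MT1E, 15 for PKNOX2 and for PRKCH, 12 for SERPINB5, 11 for FEZ1 and 10 for AJUBA. Leaving out 1 array or changing the variance model could not turn the direction of these 6 genes, because their arrays do not overlap. Those outcomes were fixed beforehand and are no added support. Of 871 values of 46 named genes under the alternatives 0 changed sign, called or not, and 33 lost and 44 gained a call. The 46 genes were picked by a call or by the smallest p of their list. For those without overlap many of these outcomes were likewise fixed beforehand, so their steady signs are no added support. The median of the IL-1 and NF-κB list ranged from -0.32 to -0.18 and that of the YAP and TEAD list from -0.19 to -0.11. That of the chemokine list changed sign in 1 alternative. The offset shrinks the differences of dim genes.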
